A study of Mus musculus with 6 samples.

Results

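The 35 genes described here encode the ATR checkpoint, the homologous recombination machinery and the Fanconi anaemia proteins that work with it. They were taken by name from a list drawn up with earlier results of these data known, with no threshold on a measured value, and all 35 were found among the 22600 genes of the deposited count table. Read counts per gene were measured by RNA-seq in mouse cells of a C57BL/6 background, kept in culture for 96 h. There were 4 groups: FLICs with OHT (1 library), untreated FLICs (1 library), embryonic stem (ES) cells with OHT (2 libraries) and untreated ES cells (2 libraries). FLICs are the labels' name for cells differentiated from ES cells. OHT, 4-hydroxytamoxifen, was given for 3 days, and the labels give every OHT library the genotype TRF2-/- and every untreated library the genotype wild-type. No group had OHT with TRF2 still present, so effects of OHT itself and of the loss of TRF2 cannot be told apart. The labels name neither the Cre that OHT would act on nor the number of clones.

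ATR is the kinase that responds to single-stranded DNA. RPA coats such DNA, the ATRIP subunit brings ATR to it, TOPBP1 or ETAA1 switches the kinase on, and CHK1 carries the signal to the cell cycle. Homologous recombination repairs a broken end by resecting it to single-stranded DNA, which then invades an intact copy with the help of BRCA2. The Fanconi proteins open crosslinked DNA for this repair. TRF2, encoded by Terf2, covers telomere ends, where it is best known for keeping the related kinase ATM and end joining in check. ES cells divide rapidly and spend much of the cell cycle in S phase, when recombination and ATR are most used.

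Terf2 was at 0.114 CPM (read counts scaled to a common library size, with sizes adjusted by the TMM method) in FLICs with OHT and at 8.27 CPM in untreated FLICs. It was at 0.281 and 0.392 CPM in ES cells with OHT, against 18.3 and 19.5 CPM in untreated ES cells. Library totals ran from 23534551 to 43965309 counts, and all 35 genes passed the filter on low counts. The least abundant, Rad51b, had 4.21 to 5 CPM, so none was near the limit of 0.0686 to 0.118 CPM that a count of 0 allows, which covers counting error only. The labelled cell types were checked against marker lists. The 10 pluripotency markers summed to 97.6 CPM in FLICs with OHT and 152 CPM in untreated FLICs, with Zfp42 at 0, against 3864 to 4483 CPM over the 4 ES cell libraries. The 10 fibroblast and mesenchymal markers summed to 23237 and 18012 CPM in FLICs with OHT and untreated, against 1388 to 2289.7 CPM in ES cells, although Thy1 was lower in FLICs (0.641 and 0.556 CPM) than in ES cells (4.42 to 7.41 CPM) and Pdgfra was under 1 CPM in FLICs. The 5 endoderm markers summed to 93.4 and 94.1 CPM in FLICs with OHT and untreated, against 1.78 to 3.18 CPM in ES cells. Foxa2 gave most of that sum in FLICs (61.5 and 66.8 CPM), with Gata4 and Gata6 also higher, and Sox17 was at 0. The 5 neural markers summed to 939 and 821 CPM, mostly Nes, against 281 to 356 CPM. Nes and Pax6 were higher in FLICs, but Tubb3 (85.3 and 66.6 CPM, against 189 to 248 CPM in ES cells), Sox1 and Map2 were lower. The OHT-treated ES cell libraries differed from each other more than the untreated ones, with a coefficient of variation between the 2 libraries of 26.5% against 7.65%. Trp53, which encodes p53, was one gene that differed between them, with 7.82 CPM in FLICs with OHT and 8.98 CPM in untreated FLICs, 8.39 and 83.1 CPM in ES cells with OHT, and 299 and 345 CPM in untreated ES cells. The labels name no change at that gene, and its part in the results was not tested. Whether paired libraries of a group stem from different cultures is not in the labels, and the spread behind each p-value may therefore be technical.

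FLICs had less RNA of most of these genes than ES cells. Without OHT, 22 of 35 were called lower in FLICs (62.9%) and 0 were called higher, by edgeR's quasi-likelihood test with a Benjamini-Hochberg adjusted p under 0.05 over 15535 genes. Of all genes tested, 28.7% were called lower and 26.2% higher. Their median log2 fold change was -0.84, against -0.11 for all genes tested. With OHT, 18 of 35 were called lower in FLICs (51.4%) and 0 higher, against 29.3% lower and 28.4% higher of all genes tested. The medians were -0.66 for the 35 genes and -0.071 for all genes tested. The libraries differ from those of the first comparison, but both comparisons share the same fit and spread, so they are not independent. The genes called lower in both comparisons numbered 17, which is 94.4% of those called with OHT and 77.3% of those called without. Such agreement was not particular to these genes. The log2 fold changes of both comparisons had a Pearson correlation of 0.939 over the 35 genes and 0.917 over all genes tested. Etaa1, Fanca, Rad1, Rad50 and Rpa1 were called only without OHT, and Rad17 only with it. Both comparisons set a single FLICs library against 2 ES cell libraries and take that library to vary as the ES cell pairs do. RNA was taken in bulk, so fewer cells that make a transcript and less RNA per cell cannot be told apart.

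**Figure D1:**
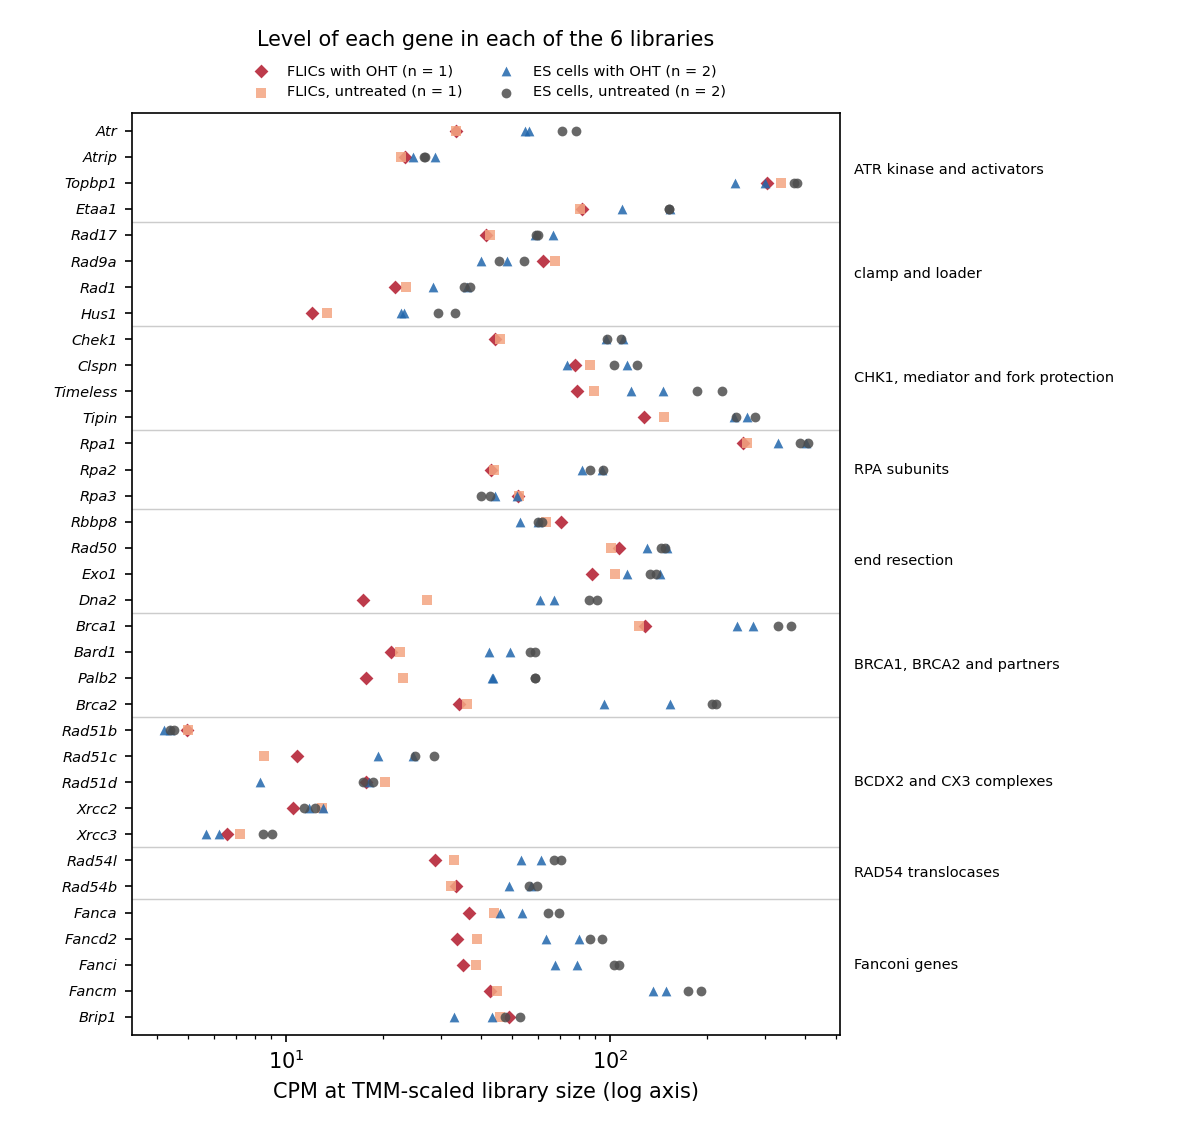
Level of each of the 35 genes (rows, grouped by role) in each of the 6 libraries, in CPM on a log axis. Diamonds are FLICs with OHT, squares untreated FLICs, triangles ES cells with OHT and circles untreated ES cells. Brca2, Fancm, Dna2 and Brca1 in FLICs lie well to the left of every ES cell library, while Topbp1, Rpa3, Rbbp8 and 4 of the 5 genes of the BCDX2 and CX3 complexes do not.

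Brca1, Brca2, Bard1 and Palb2 were each called lower in FLICs, with and without OHT. BRCA2 is the central mediator of recombination, PALB2 bridges BRCA2 to BRCA1, and BRCA1 works as a pair with BARD1. Brca2 (chr5:150522630-150570329, GRCm38) was at 34.2 CPM in FLICs with OHT and 36.2 CPM in untreated FLICs, against 153 and 96 CPM in ES cells with OHT and 207 and 213 CPM in untreated ES cells. Every FLICs value was below every ES cell value. The log2 fold change was -2.53 (SE 0.33, edgeR adjusted p = 0.00165) without OHT, which is 0.173 of the ES cell level, and -1.87 (SE 0.32, adjusted p = 0.00426) with OHT. Brca1 (chr11:101488764-101551955) was at 128 CPM in FLICs with OHT and 123 CPM in untreated FLICs, against 247 and 277 CPM in ES cells with OHT and 329 and 362 CPM in untreated ES cells. Its log2 fold change was -1.49 (SE 0.19, edgeR adjusted p = 0.00161) without OHT and -1.04 (SE 0.19, adjusted p = 0.00542) with OHT. Palb2 (chr7:122107262-122132985) was at 17.7 and 22.9 CPM in FLICs with OHT and untreated, against 43.5 and 43.1 CPM in ES cells with OHT and 58.9 and 58.6 CPM in untreated ES cells. Bard1 (chr1:71027498-71103146) was at 21.1 and 22.5 CPM in FLICs with OHT and untreated, against 49.2 and 42.2 CPM in ES cells with OHT and 58.8 and 56.5 CPM in untreated ES cells. Both had a log2 fold change of -1.36 without OHT (edgeR adjusted p = 0.00131 for Palb2 and 0.00209 for Bard1). With OHT the log2 fold changes were -1.29 for Palb2 (SE 0.17, edgeR adjusted p = 0.0015) and -1.12 for Bard1 (SE 0.18, adjusted p = 0.00388).

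Rad51b, Rad51c, Rad51d, Xrcc2 and Xrcc3 encode the BCDX2 and CX3 complexes, which assist recombination, and did not follow one pattern. Rad51c (chr11:87376645-87404954), the subunit found in both complexes, was at 10.8 CPM in FLICs with OHT and 8.55 CPM in untreated FLICs, against 19.3 and 24.7 CPM in ES cells with OHT and 25.1 and 28.6 CPM in untreated ES cells. It was the only gene of the 5 called, with log2 fold changes of -1.65 without OHT (SE 0.25, edgeR adjusted p = 0.00299) and -1.02 with OHT (SE 0.24, adjusted p = 0.014). Rad51b, Rad51d and Xrcc2 had log2 fold changes of 0.17, 0.17 and 0.12 without OHT, and Xrcc3 of -0.28, with adjusted p from edgeR between 0.325 and 0.752. Xrcc2, for example, was at 10.5 and 12.9 CPM in FLICs with OHT and untreated, and at 13 and 11.8 CPM in ES cells with OHT and 12.3 and 11.4 CPM in untreated ES cells. Untreated FLICs lay just above both untreated ES cell libraries, and FLICs with OHT just below both OHT-treated ones. No test compared Rad51c with the other genes of the complexes. The RAD54 translocases, which act during strand invasion, were both called lower in each comparison. Rad54l was at 28.8 and 33.1 CPM in FLICs with OHT and untreated, against 61.1 and 53.3 CPM in ES cells with OHT and 70.5 and 67.1 CPM in untreated ES cells (log2 fold change -1.06 without OHT, edgeR adjusted p = 0.00441). Rad54b had a log2 fold change of -0.84 (edgeR adjusted p = 0.0109) without OHT and -0.66 (adjusted p = 0.0231) with OHT. Rad54b shares 2068 exon bases on the same strand with Fsbp, so its counts are uncertain. Rad54l shares 1184 exon bases with Lrrc41 on the opposite strand.

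Among the Fanconi genes, those of the remodelling helicase and of the clamp-like pair that is ubiquitinated at crosslinks were lower. Fancm (chr12:65075603-65132058) encodes the helicase that recognises a blocked fork. It was at 42.5 CPM in FLICs with OHT and 44.8 CPM in untreated FLICs, against 149 and 136 CPM in ES cells with OHT and 174 and 190.4 CPM in untreated ES cells. The log2 fold change was -2.03 (SE 0.19, edgeR adjusted p = 0.000474) without OHT and -1.75 (SE 0.18, adjusted p = 0.000725) with OHT. FANCI and FANCD2 form the pair that is ubiquitinated. Fanci (chr7:79391929-79450264) was at 35.2 and 38.7 CPM in FLICs with OHT and untreated, against 67.9 and 79.2 CPM in ES cells with OHT and 107 and 103 CPM in untreated ES cells (log2 fold change -1.44 without OHT, SE 0.19, edgeR adjusted p = 0.0016). Fancd2 was at 33.7 and 38.9 CPM in FLICs with OHT and untreated, against 80 and 63.6 CPM in ES cells with OHT and 94.8 and 87 CPM in untreated ES cells (log2 fold change -1.22 without OHT, edgeR adjusted p = 0.00469). Fanca, a subunit of the core ligase complex, was called only without OHT (log2 fold change -0.61, edgeR adjusted p = 0.0325). Brip1, the helicase that binds BRCA1, was not called in either comparison, with log2 fold changes of -0.13 without OHT and 0.36 with OHT. Fanci and Polg share 921 exon bases, Fanca and Zfp276 share 920, and Fancd2 and Fancd2os share 257, each pair on opposite strands. The sources used here do not state whether strand was used in counting.

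The end-resection genes split. Dna2 (chr10:62947026-62974185) encodes a nuclease and helicase of long-range resection. It was at 17.3 CPM in FLICs with OHT and 27.2 CPM in untreated FLICs, against 67.1 and 60.7 CPM in ES cells with OHT and 90.9 and 85.9 CPM in untreated ES cells. Its log2 fold change was -1.70 (SE 0.18, edgeR adjusted p = 0.000731) without OHT and -1.89 (SE 0.18, adjusted p = 0.000505) with OHT, the largest of the 35 in that comparison. Exo1, which encodes the other long-range nuclease, was not called (log2 fold change -0.39, edgeR adjusted p = 0.151 without OHT, and -0.54, adjusted p = 0.0644 with OHT). DESeq2, and edgeR with a filter of 5 CPM in 2 libraries, did call Exo1 lower with OHT. Its place in the split therefore depends on the fit. Rbbp8, which encodes CtIP, the factor that starts resection, was at 70.4 and 63.7 CPM in FLICs with OHT and untreated, and at 52.7 to 61.9 CPM over the 4 ES cell libraries, and was not called. Rad50, of the complex that first binds the break, was called only without OHT (log2 fold change -0.53, edgeR adjusted p = 0.0484).

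Of the ATR pathway proper, the kinase and its effector were lower in FLICs while the activator TOPBP1 and the partner ATRIP were not called. Atr was at 33.5 and 33.6 CPM in FLICs with OHT and untreated, against 56.2 and 54.5 CPM in ES cells with OHT and 71 and 78.5 CPM in untreated ES cells. Its log2 fold change was -1.16 (SE 0.17, edgeR adjusted p = 0.00267) without OHT and -0.72 (SE 0.17, adjusted p = 0.0129) with OHT. Chek1 (chr9:36708482-36727065), which encodes CHK1, was at 44.2 and 45.9 CPM in FLICs with OHT and untreated, against 110.0 and 97.1 CPM in ES cells with OHT and 108 and 98.1 CPM in untreated ES cells. The ES cell libraries with and without OHT overlap, and both lie above FLICs, with log2 fold changes of -1.16 (SE 0.18, edgeR adjusted p = 0.00336) without OHT and -1.23 (SE 0.18, adjusted p = 0.00259) with OHT. Topbp1 was at 305 and 337 CPM in FLICs with OHT and untreated, against 301 and 243 CPM in ES cells with OHT and 379 and 371 CPM in untreated ES cells, with log2 fold changes of -0.15 without OHT (edgeR adjusted p = 0.542) and 0.16 with OHT (adjusted p = 0.499). Atrip had log2 fold changes of -0.23 and -0.20 (edgeR adjusted p = 0.324 and 0.39), and its counts are uncertain because it shares 1147 exon bases on the same strand with Trex1. Etaa1, the second activator, was called without OHT (log2 fold change -0.92, edgeR adjusted p = 0.0226) and missed the threshold with OHT (-0.68, adjusted p = 0.0549).

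TIMELESS and TIPIN hold the fork together and pass the signal to CHK1 with CLASPIN. Timeless was at 79 and 89.6 CPM in FLICs with OHT and untreated, against 146 and 116 CPM in ES cells with OHT and 221 and 185 CPM in untreated ES cells (log2 fold change -1.18 without OHT, edgeR adjusted p = 0.00744). Tipin was at 127 and 147 CPM in FLICs with OHT and untreated, against 242 and 265 CPM in ES cells with OHT and 280.4 and 245 CPM in untreated ES cells (log2 fold change -0.84 without OHT, edgeR adjusted p = 0.0124). Clspn, the CLASPIN gene, was not called in either comparison (edgeR adjusted p = 0.312 without OHT and 0.454 with OHT). The checkpoint clamp is a ring of RAD9A, RAD1 and HUS1 that RAD17 loads. Hus1 was at 12 and 13.4 CPM in FLICs with OHT and untreated, against 23.2 and 22.7 CPM in ES cells with OHT and 29.4 and 33.2 CPM in untreated ES cells (log2 fold change -1.23 without OHT, edgeR adjusted p = 0.00362, and -0.94 with OHT, adjusted p = 0.00859). Rad1 was called only without OHT (log2 fold change -0.63, edgeR adjusted p = 0.0474). Rad17 had a log2 fold change of -0.48 without OHT (edgeR adjusted p = 0.0555) and -0.60 with OHT (adjusted p = 0.0275). Rad9a, the third part of the same ring, lay the other way, at 62 and 67.6 CPM in FLICs with OHT and untreated, against 48 and 39.9 CPM in ES cells with OHT and 54.3 and 45.6 CPM in untreated ES cells. With log2 fold changes of 0.44 (edgeR adjusted p = 0.108) and 0.50 (adjusted p = 0.0743), it did not pass the test. It shares 225 exon bases with Ppp1ca on the opposite strand.

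Of the 3 subunits of RPA, the single-strand binding complex, 2 were called lower in untreated FLICs and 1 with OHT. Rpa2, called in both comparisons, was at 43 and 44 CPM in FLICs with OHT and untreated, against 94.2 and 81.9 CPM in ES cells with OHT and 95.5 and 87 CPM in untreated ES cells (log2 fold change -1.05 without OHT, edgeR adjusted p = 0.00503). Rpa1, the large subunit, had a log2 fold change of -0.59 without OHT (edgeR adjusted p = 0.0495) and -0.51 with OHT (adjusted p = 0.0706). Rpa3, the small subunit, was at 51.9 and 52.5 CPM in FLICs with OHT and untreated, and at 44.2 and 51.6 CPM in ES cells with OHT and 42.7 and 40.1 CPM in untreated ES cells (log2 fold change 0.35 without OHT, edgeR adjusted p = 0.14).

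**Figure D2:**
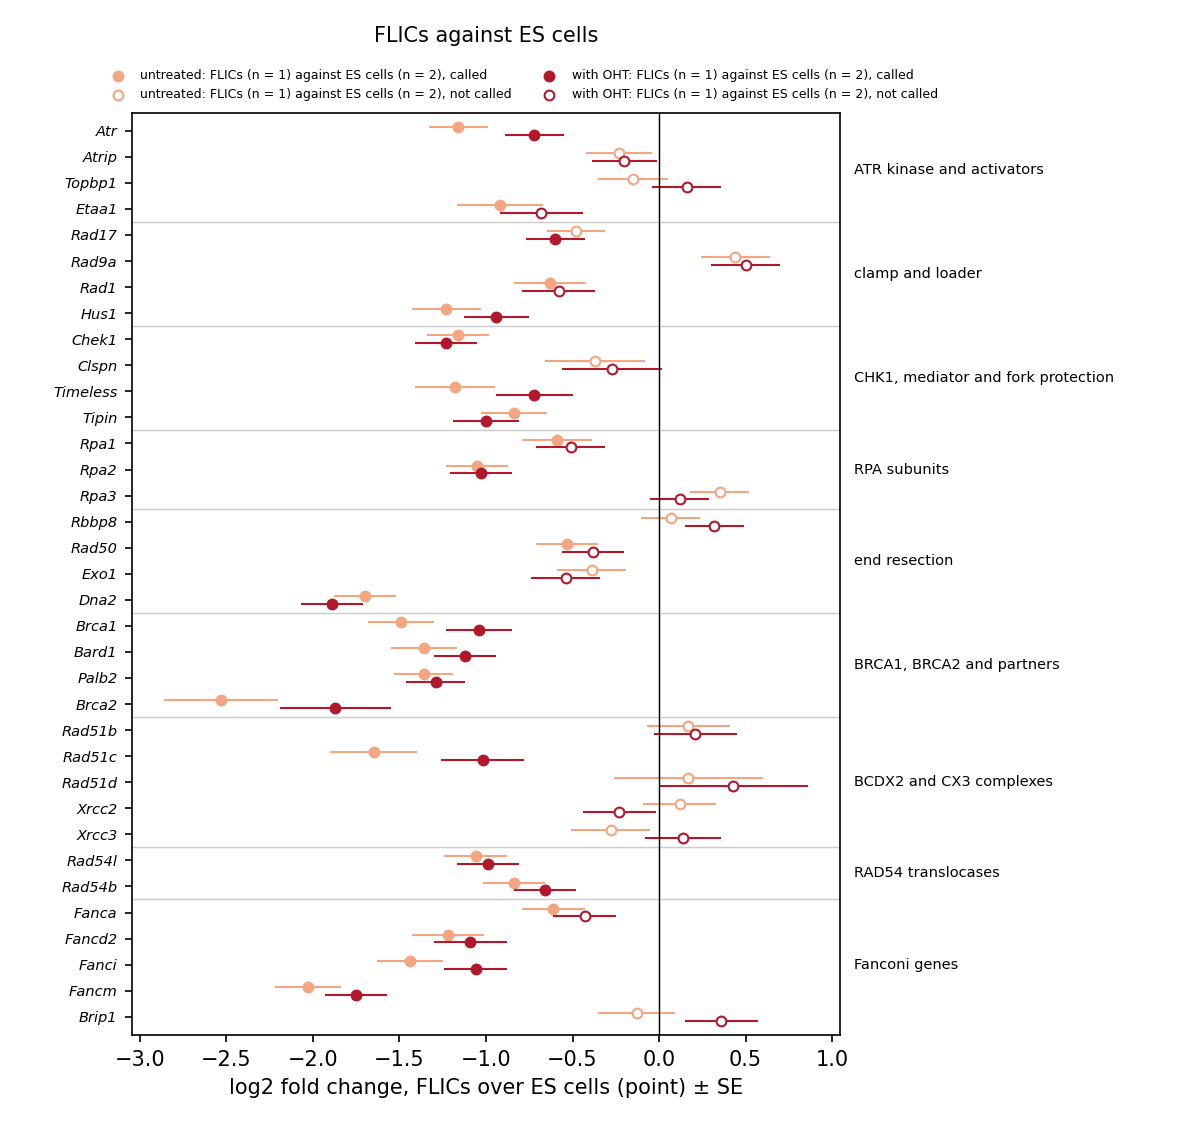
Log2 fold change of FLICs over ES cells for each gene, with its SE, without OHT (light) and with OHT (dark). Filled points were called at an adjusted p under 0.05. All filled points, 22 without OHT and 18 with OHT, lie left of 0.

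The calls nearest the threshold depended on single ES cell libraries, and the counts over all genes shifted with them. Without untreated ES cell replicate 1, or without replicate 2, 15 genes were called lower in untreated FLICs in place of 22, and those lost were Etaa1, Fanca, Rad1, Rad50, Rad54b, Rpa1 and Tipin, with adjusted p from edgeR between 0.069 and 0.283. Of all genes, 18.5% and 18.4% were then called lower, against 28.7% with all libraries. The count with OHT was then 14 in place of 18, without Atr, Rad17, Rad54b and Timeless (adjusted p from edgeR between 0.0731 and 0.131), and that over all genes 22% and 22.1%. Without ES cell OHT replicate 1 or 2, whose pair varied most, 25 were called lower and 2 higher (Rad9a and Rpa3) in untreated FLICs, where 41.8% and 41.1% of all genes were called lower and 36.6% and 37.3% higher. With OHT, 23 were then called lower and 3 higher (Rad9a, Rbbp8 and Topbp1) without replicate 1, and 26 lower and 3 higher (Rad9a, Rad51d and Brip1) without replicate 2, against 39.5% of all genes lower in each and 37% and 37.8% higher. With only the 3 OHT libraries, 13 were called lower in FLICs, without Atr, Hus1, Rad17, Rad54b and Timeless, against 22.5% of all genes. Brca2, Brca1, Bard1, Palb2, Fancm, Fanci, Fancd2, Dna2, Rad51c, Rad54l, Chek1, Rpa2 and Hus1 were called lower in both comparisons in each of the 4 fits that leave out 1 library, and of these Hus1 was not called with only the OHT libraries.

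Levels between genes were compared per kilobase of the deposited gene length. Of these lengths, 77.6% over all genes and 68.6% over the 35 are multiples of 3. What part of a transcript they cover is not known here, so the order between genes is uncertain. In untreated FLICs Tipin was highest at 176 CPM per kb, followed by Rpa3 at 145 and Rpa1 at 137, while Atr at 4.23 and Brca2 at 3.63 were lowest. In untreated ES cells Tipin, at 294 and 336 CPM per kb, and Rpa1, at 200.5 and 211, were also highest, Atr was 33rd of 35 at 8.96 and 9.91, and Rad51b was lowest at 4.11 and 4.22. Brca2 was 35th in untreated FLICs and 24th in untreated ES cells. The median of the 35 genes was 15.9 CPM per kb in untreated FLICs, against 27.7 in untreated ES cells, and the median of all genes tested was 10.9 in untreated FLICs, against 9.64 in untreated ES cells.

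Related genes, from lists chosen with earlier results of these data known, were set beside the 35. Of 60 other ATR, recombination and Fanconi genes, 26 were called lower and 9 higher in untreated FLICs (43.3% and 15%). The shares of all genes tested were 28.7% and 26.2%. The median log2 fold change of the 60 was -0.43. Blm, the helicase that dissolves recombination intermediates, was at 55.8 and 59.4 CPM in FLICs with OHT and untreated, against 203 and 215 CPM in ES cells with OHT and 284 and 279 CPM in untreated ES cells (log2 fold change -2.24 without OHT, edgeR adjusted p = 0.000304). Hus1b, a relative of Hus1, was called lower too, but it had 2 and 0 counts in FLICs with OHT and untreated and only 10 to 32 counts in ES cells. Brcc3, a deubiquitinase of the BRCA1-A complex, rose to 49.4 and 56.7 CPM in FLICs with OHT and untreated, against 22.8 and 22.6 CPM in ES cells with OHT and 19.8 and 19.3 CPM in untreated ES cells (log2 fold change 1.54 without OHT, edgeR adjusted p = 0.000665). Sem1, a small partner of BRCA2, had a log2 fold change of 1.28 (edgeR adjusted p = 0.00304). With OHT, 18 of the 60 were called lower and 8 higher (30% and 13.3%), against 29.3% and 28.4% of all genes tested.

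Cell cycle genes were compared because these genes are used in S phase. Of 38 replication and G1/S genes, 16 were called lower and 4 higher in untreated FLICs (42.1% and 10.5%, median log2 fold change -0.47). With OHT 16 were called lower and 5 higher (42.1% and 13.2%). Ccne1, a cyclin of S-phase entry, was at 63.9 and 74.6 CPM in FLICs with OHT and untreated, against 339.7 and 279.9 CPM in ES cells with OHT and 300.3 and 245 CPM in untreated ES cells (log2 fold change -1.87 without OHT, edgeR adjusted p = 0.00157). Its relative Ccne2 was higher in FLICs (log2 fold change 1.70, edgeR adjusted p = 0.00151). Of 30 mitosis and G2/M genes, 6 were called lower and 4 higher in untreated FLICs (20% and 13.3%, median -0.17). With OHT 4 were called lower and 2 higher (13.3% and 6.67%). Espl1, which encodes separase, was lower (log2 fold change -1.18, edgeR adjusted p = 0.0133) and Nuf2, of the kinetochore, was higher (0.96, adjusted p = 0.00398). In summed CPM, FLICs with OHT and untreated FLICs had 0.539 and 0.573 of the untreated ES cell mean for the 35 genes. For the replication list the ratios were 0.601 and 0.645, for mitosis 0.811 and 0.853, and for ATM and end joining 0.418 and 0.449. Parp1 (1334 and 1205 CPM) and Rif1 (849 and 936 CPM) carried much of the last sum in untreated ES cells (3855 and 3826 CPM). What part a different share of cells in S phase has in the differences of the 35 genes was not tested. Of 25 ATM and end-joining genes, 8 were called lower and 1 higher in untreated FLICs (32% and 4%, median log2 fold change -0.26). With OHT 9 were called lower and 3 higher (36% and 12%). The shares called lower over all genes tested were 28.7% without OHT and 29.3% with it. Rif1, which limits end resection, was at 166 and 204 CPM in FLICs with OHT and untreated, against 764 and 665 CPM in ES cells with OHT and 849 and 936 CPM in untreated ES cells (log2 fold change -2.13 without OHT, edgeR adjusted p = 0.000581). Parp1, a sensor of DNA breaks, had a log2 fold change of -1.98 (edgeR adjusted p = 0.0011), and Paxx, an end-joining accessory factor, of 1.53 (adjusted p = 0.00933) at 1.22 to 6.11 CPM over the 6 libraries.

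**Figure D3:**
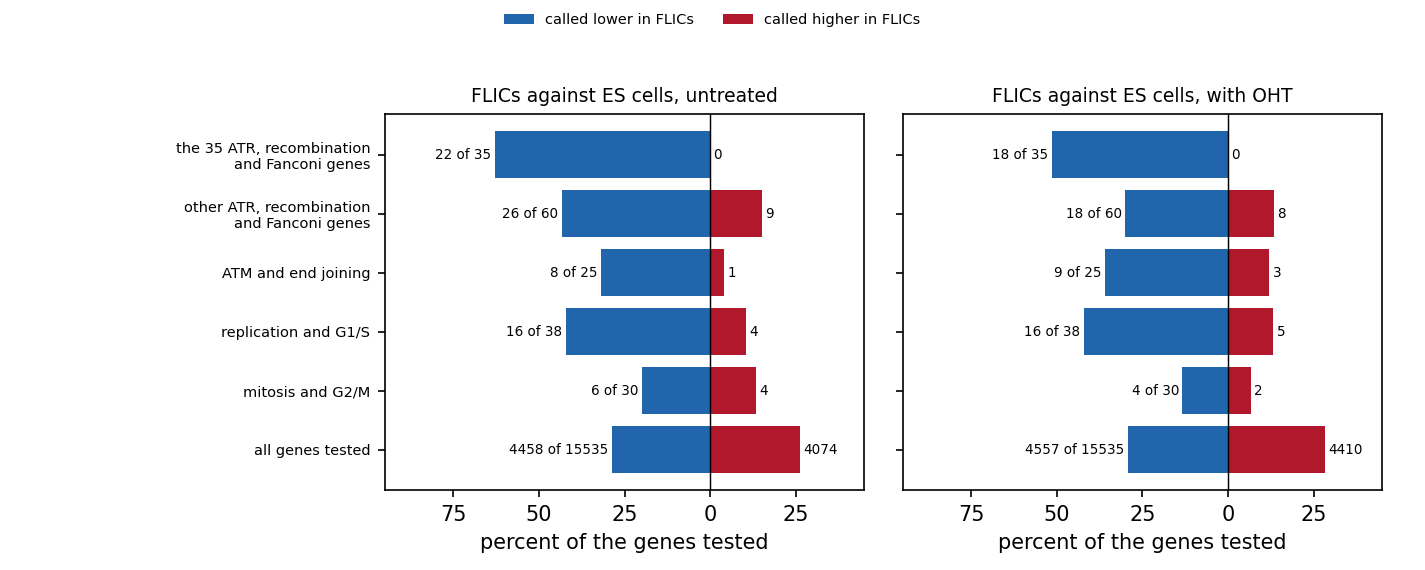
Percent of each gene list called lower (bars to the left, with the count) and higher (bars to the right) in FLICs against ES cells, without OHT and with OHT. Of the 35 genes, 22 and 18 were called lower and 0 higher, while 28.7% and 29.3% of all genes tested were called lower.

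Because many of the genes were lower together in FLICs, their promoters were searched for the binding letters of E2F factors, which drive S-phase genes, and for the CHR element of G2/M genes. The RefSeq table (GRCm38.p6) gives promoters, from 250 bases before to 50 after the start, for 26 of the 35 genes. The E2F letters TTTCCCGC, TTTGGCGC or TTTCGCGC were found on either strand for 5 of 26 genes (19.2%), against 3.75% of 11924 tested genes and 2.12% of 27025 genes with a promoter. The CHR letters TTTGAA or TTCGAA were found for 4 of 26 (15.4%), against 16.5% of the tested genes. The E2F and CHR letters cannot overlap each other. In the 250 bases before the start alone, E2F letters were found for 3 of 26 genes (11.5%), against 3.15% of the tested genes. Over the full window, genes with E2F letters were Bard1, Brca2, Topbp1, Clspn and Rad51c, of which Topbp1 and Clspn were not called in FLICs. The share was 16.7% of the 18 genes called lower in untreated FLICs and 25% of the 8 not called. The stretches with E2F letters before the start (Bard1, Brca2, Topbp1) are shown first, with those letters in capitals, and below them the last 80 bases before the start of 3 genes among the most reduced in FLICs, in which these exact letters are not found. Each is written 5′ to 3′ along the gene.
Bard1, chr1:71103138-71103217, minus strand: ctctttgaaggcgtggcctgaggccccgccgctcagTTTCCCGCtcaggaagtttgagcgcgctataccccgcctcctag
Brca2, chr5:150522417-150522496, plus strand: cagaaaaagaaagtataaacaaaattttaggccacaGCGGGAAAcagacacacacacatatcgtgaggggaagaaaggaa
Topbp1, chr9:103305162-103305241, plus strand: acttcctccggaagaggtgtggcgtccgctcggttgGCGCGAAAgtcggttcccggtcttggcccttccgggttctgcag
Fancm, chr12:65075523-65075602, plus strand: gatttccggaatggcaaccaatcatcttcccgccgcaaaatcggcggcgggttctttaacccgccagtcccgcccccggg
Dna2, chr10:62946949-62947028, plus strand: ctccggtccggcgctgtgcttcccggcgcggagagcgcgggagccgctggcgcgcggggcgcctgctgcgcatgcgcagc
Brca1, chr11:101551956-101552035, minus strand: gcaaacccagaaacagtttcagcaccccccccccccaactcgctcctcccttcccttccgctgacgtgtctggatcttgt
The letters begin 209 bases before the start in Bard1, 168 before it in Brca2 and 129 before it in Topbp1. In Brca2 and Topbp1 they stand on the opposite strand and so read in reverse complement. A match describes the letters in this window, not binding.

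OHT in ES cells lowered none of the 35 genes past the threshold. By edgeR's quasi-likelihood test 0 of 35 were called in either direction, against 0.0129% of all genes called lower and 0.521% called higher, and by DESeq2 0 were called. At an unadjusted p under 0.05 there were 12, all lower, against 7.79% of all genes lower at that p. The fold changes were still mostly negative, for 30 of 35, with a median log2 fold change of -0.27 against -0.0082 for all genes tested. Related lists lay the same way, with 22 of 25 ATM and end-joining genes negative (median -0.24) and 41 of 60 other ATR, recombination and Fanconi genes (median -0.18). Both OHT libraries were below both untreated libraries for 18 of 35 genes (51.4%), against 27.6% of all genes tested, and above both for 1, Rpa3. Relative to the mean of the untreated libraries, the median of the 35 genes was -0.22 in OHT replicate 1 and -0.31 in replicate 2 on the log2 scale.

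The smallest p belonged to Fanci, Timeless and Dna2. Fanci was at 67.9 and 79.2 CPM in ES cells with OHT, against 107 and 103 CPM in untreated ES cells (log2 fold change -0.51, SE 0.14, edgeR adjusted p = 0.171). For Timeless the values were 146 and 116 CPM in ES cells with OHT, against 221 and 185 CPM in untreated ES cells (log2 fold change -0.64, SE 0.18, edgeR adjusted p = 0.173). Dna2 was at 67.1 and 60.7 CPM in ES cells with OHT, against 90.9 and 85.9 CPM in untreated ES cells (log2 fold change -0.47, SE 0.13, edgeR adjusted p = 0.178). In each of the 3 the groups do not overlap, and none passed the test. Brca2 had the most negative fold change, -0.75 (SE 0.24, edgeR adjusted p = 0.197), with OHT replicates that differ from each other at 153 and 96 CPM. Palb2 had closer replicates, 43.5 and 43.1 CPM in ES cells with OHT against 58.9 and 58.6 CPM in untreated ES cells (log2 fold change -0.44, edgeR adjusted p = 0.18). Rad51d was at 8.33 and 18.1 CPM in ES cells with OHT, against 17.3 and 18.6 CPM in untreated ES cells, so replicate 1 alone carries its fold change of -0.45 (edgeR adjusted p = 0.531). Chek1 had a log2 fold change of 0.0096 (edgeR adjusted p = 0.984).

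The count of 0 rested on the spread between the OHT libraries. Without OHT replicate 1, 18 of the 35 genes were called lower and 1 higher (Rpa3, log2 fold change 0.32), against 20.3% of all genes called lower. Without replicate 2, 12 were called lower and 0 higher, against 13.9% of all genes called lower. In these fits the spread comes from the close untreated pair, and the single OHT library is assumed to vary like it. Brca2 then had a log2 fold change of -1.13 without replicate 1 and -0.42 without replicate 2. The replicates also differed in replication genes, which summed to 10568 and 8268 CPM in ES cells with OHT, against 11071 and 9818 CPM in untreated ES cells. Genes of the two-cell-like state, a minor state in ES cell cultures, summed to 183 and 145 CPM in ES cells with OHT over the 6 genes of the list, against 8.71 and 9.21 CPM in untreated ES cells. The part of either in the values of the 35 genes was not tested.

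**Figure D4:**
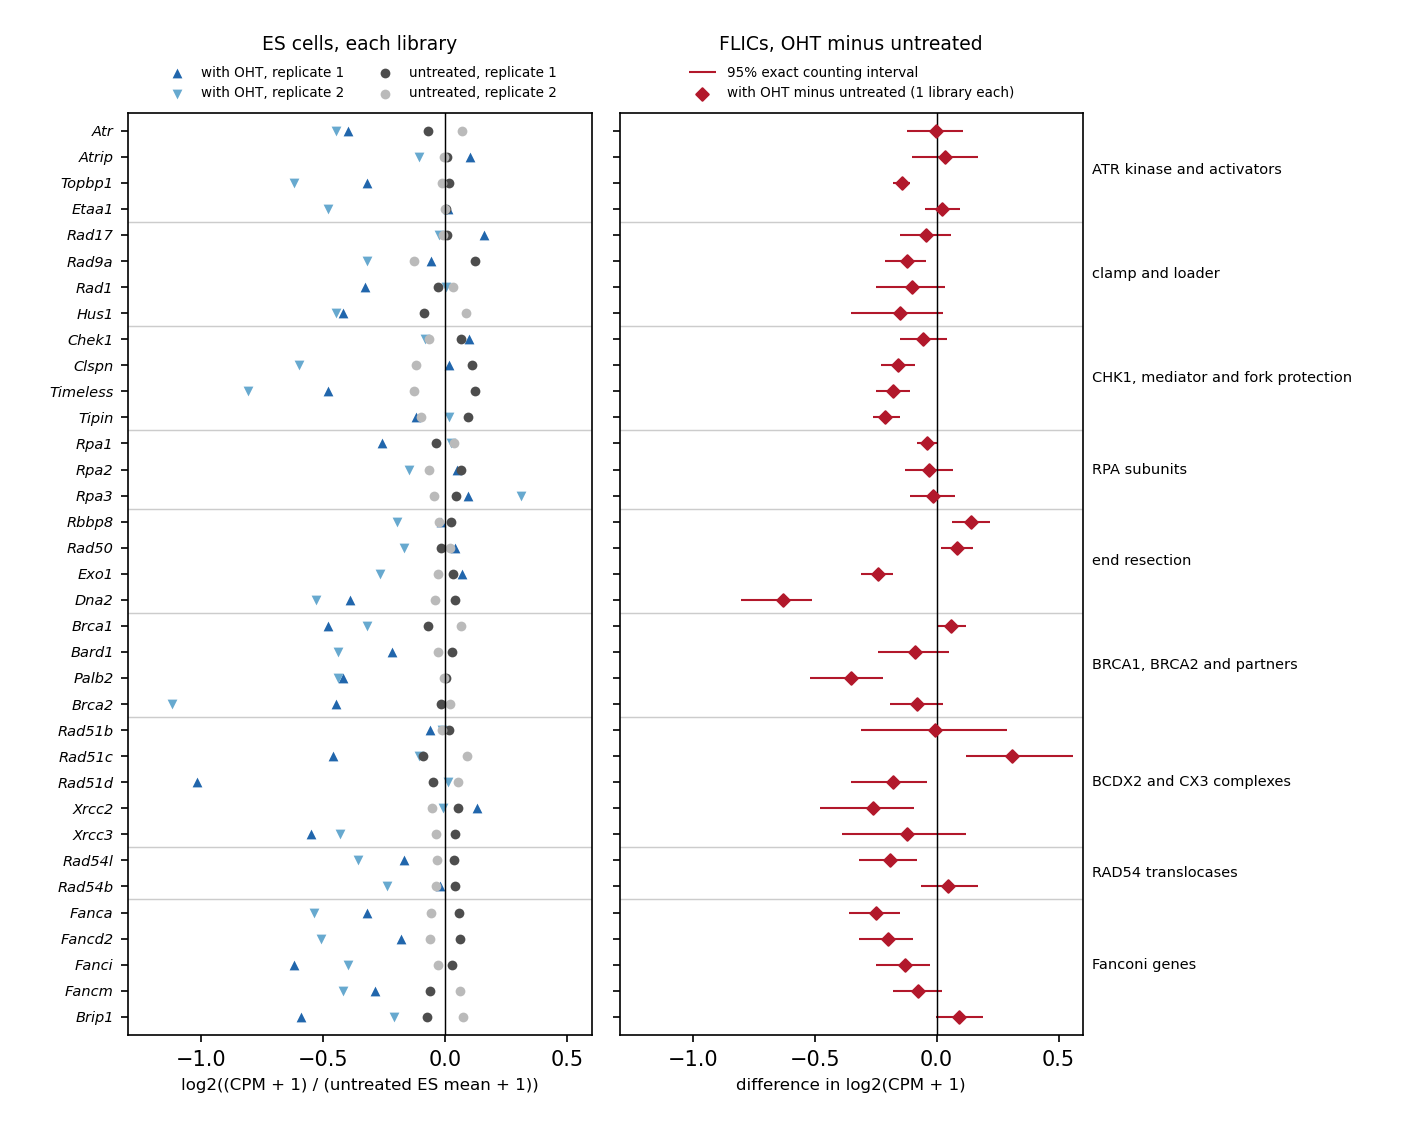
Left, level of each gene in each ES cell library relative to the mean of the untreated libraries, as log2 with 1 CPM added. Right, difference in log2(CPM + 1) between FLICs with OHT and untreated FLICs, 1 library each, with the exact 95% interval of the count ratio, which covers counting error only. In ES cells both OHT libraries are below both untreated ones for 18 genes, and in FLICs the differences run from -0.63 (Dna2) to 0.31 (Rad51c).

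No gene of the 35 differed by 2-fold between FLICs with OHT and untreated FLICs. With 1 library each there was no test, and the rule of size was a 2-fold difference in CPM + 1 among genes with a mean of 1 CPM or more. It held for 0 of 35 genes and for 0.526% of the 11789 genes at that level. The median difference was -0.089, with 27 genes lower and 8 higher with OHT, against a median of 0.034 with 5140 lower and 6649 higher among all genes at that level. Dna2 was at 17.3 CPM in FLICs with OHT, against 27.2 CPM in untreated FLICs, a difference of -0.63 (exact 95% interval of the log2 ratio of counts -0.80 to -0.51). Palb2 was at 17.7 CPM in FLICs with OHT, against 22.9 CPM in untreated FLICs, a difference of -0.35 (-0.52 to -0.22). Rad51c was at 10.8 CPM in FLICs with OHT, against 8.55 CPM in untreated FLICs, a difference of 0.31 (0.12 to 0.56). These intervals cover counting error only and say nothing of the spread between cultures.

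Whether the response to OHT differed between FLICs and ES cells was tested as an interaction. None of the 35 genes was called by edgeR's quasi-likelihood test, as was none of the 15535 genes tested (0%). None of the 35 had an unadjusted p under 0.05 by edgeR or was called by DESeq2. Of all 15535 genes, 1057 had such a p, and DESeq2 called 1 higher and 19 lower. The largest difference was that of Brca2, 0.67 on the log2 scale (SE 0.41, edgeR adjusted p = 0.797). A positive value means a more positive or less negative change in FLICs than in ES cells. Rad51c (0.63, SE 0.33, edgeR adjusted p = 0.757), Atr (0.43, SE 0.23, adjusted p = 0.759) and Brca1 (0.46, SE 0.25, adjusted p = 0.764) had the smallest p. Without ES cell OHT replicate 1 the genes called were Brca2, Etaa1 and Timeless, and without replicate 2 they were Brip1, Rad51c and Rad51d, all with a positive difference. These 3 of 35 (8.57%) stand against 11.7% of all genes called with a positive difference without replicate 1 and 8.55% without replicate 2, so they are near or under the share of all genes.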

How the data were processed

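Total RNA was sequenced from stranded libraries (TruSeq Stranded Total RNA LT, per the labels). Whole-number read counts per gene were deposited for 22600 Ensembl genes, not normalized, with a length per gene, of which 77.6% are multiples of 3. Salmon, DESeq2 and the build GRCm38 appear in the submitters' processing notes, but their settings, the annotation version and the use of strand are not stated there. Symbols were matched through GENCODE M21 on GRCm38 for 22509 genes. Samples were grouped by title and treatment label.

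The tests were run in R 4.3.3 with edgeR 4.0.16 (and limma 3.58.1, on which it depends). Genes were filtered with filterByExpr by group, which left 15535, and scaled by TMM. The quasi-likelihood fit had a mean for each of the 4 groups and used all 6 libraries, with 2 residual and 3.79 prior degrees of freedom, both residual ones from the ES cell pairs. Benjamini-Hochberg adjustment ran over all genes, with calls at 0.05. The SE is the log2 fold change divided by the root of the F statistic. CPM values use TMM-scaled library sizes. The OHT pair and the untreated pair of ES cells exceeded sampling noise, with chi-square values over their degrees of freedom of 70.6 and 13.9, so each pair was kept as 2 libraries. On simulated data over 15535 genes, with 200 changed genes in each of 3 runs, 63% of 2-fold and 99.7% of 4-fold changes were recovered for OHT in ES cells, and 8.39% of calls were false. For FLICs against untreated ES cells 31% and 96% were recovered and 10.3% of calls were false. In that simulation only the 200 genes differed between the groups, whereas 28.7% of genes were called lower and 26.2% higher in the data. Its rates therefore need not hold for the FLICs comparison.

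The members and all lists were chosen with earlier results of these data known. Of the genes in the list of other pathway genes, Hrob was not matched, and 1 gene is not reported here. Full values are given for up to 6 called members with the largest changes per direction whose groups do not overlap, or the 3 smallest p where fewer than 3 were called, for the 3 largest differences in FLICs, and for up to 4 called genes of each list. Other values are given by role. Alternatives were RLE scaling, DESeq2 1.42.0, no count filter, 5 CPM in 2 libraries, each ES cell library left out, a replicate block, only the libraries compared, and a fold of 1.5 or a pseudocount of 5 CPM for FLICs.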

Additional observations from a re-analysis of the deposited data

How the results depend on the processing

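RLE scaling, DESeq2, no count filter and 5 CPM in 2 libraries kept the counts within 1.5 times. They gave 19 to 23 genes called lower in untreated FLICs and 18 to 23 with OHT. In those fits 24.4% to 28.2% of all genes were called lower in untreated FLICs, and 24.3% to 30.4% with OHT. Of all genes, for OHT in ES cells, DESeq2 called 86 lower and 285 higher and the fit without a count filter 26 and 236, against 2 and 81. Leaving out ES cell libraries gave 15 to 25 lower and 0 to 2 higher in untreated FLICs, with medians of -0.74 to -0.88, and 14 to 26 lower and 0 to 3 higher with OHT, with medians of -0.55 to -0.76. For OHT in ES cells it gave 0 to 18 lower, 0 to 1 higher and medians of -0.19 to -0.32, and for the difference in OHT response 0 to 3 higher and medians of 0.033 to 0.26. With only the untreated libraries 25 genes were called lower in FLICs (41.6% of all genes) and 2 higher (38% of all genes). With only the OHT libraries 13 were called lower (22.5% of all genes). The median with OHT was -0.75 at 5 CPM in 2 libraries, where Rad51b is not tested. RLE scaling and DESeq2 each gave a median of 0.066 for the difference in OHT response. At 1.5-fold, 1 gene (Dna2) passed in FLICs. The share of all genes past 1.5-fold is not given here, so this count has no background beside it. Over the fits without ES cell OHT replicate 1 or 2, Rad51d ran from -1.07 to 0.014 for OHT in ES cells and from -0.037 to 1.07 for FLICs with OHT, and Clspn from -0.56 to 0.074 for FLICs with OHT, each with the reversed sign without replicate 1. The causes were not tested. The number in the titles is not explained by the labels, and with 2 pairs it is not shown to pair libraries (correlation of deviations of same-numbered ES cell libraries 0.345). With a replicate block, at 1 residual degree of freedom, 2 genes (Brca2 and Timeless) were called lower with OHT in ES cells, against 2.52% of all genes, and 1 (Rad9a) was called higher in FLICs with OHT, against 32.3% of all genes. With 1 library per FLICs group, no spread between FLICs cultures was measured.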

Other observations

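Of the 35 genes, 8 lie on chromosome 11 (22.9%) and 5 on chromosome 9 (14.3%), against 8.16% and 5.62% of the genes tested. Between the OHT-treated ES cell libraries, the 35 genes were higher in replicate 1 by a median of 0.18 on the log2 scale, against -0.0036 for all genes tested, with Brca2 at 0.67 and Rad51d at -1.03. The untreated ES cell libraries differed by a median of 0.05 for the 35 genes.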
